A study of Mus musculus with 4 samples.

Results

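The 9 genes described here encode the integrins by which leukocytes hold on to vessel wall, matrix and other cells: 6 alpha subunits (Itga4, Itga6, Itgae, Itgal, Itgam and Itgax) and 3 beta subunits (Itgb1, Itgb2 and Itgb7). They were taken by name from the 18825 genes of the deposited count table, and all 9 were detected. Their levels were followed over the 14 cell clusters, numbered 0 to 13, that the authors drew among 3002 myeloid cells of the mouse aorta.

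An integrin is a pair of 1 alpha and 1 beta subunit, and the pair sets what the cell binds. Itgb2 pairs with Itgal (LFA-1), Itgam (Mac-1, complement receptor 3) and Itgax (complement receptor 4), which bind ICAM molecules and, for Itgam and Itgax, complement fragments. Itga4 pairs with Itgb1 (VLA-4, the receptor for VCAM-1 and fibronectin) or with Itgb7 (the receptor for MAdCAM-1). Itgae pairs with Itgb7 and binds E-cadherin, and Itga6 pairs with Itgb1 and binds laminin. In atherosclerosis, VLA-4 and the Itgb2 integrins are known for slowing monocytes on inflamed endothelium and for their firm arrest.

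All libraries belong to 1 group: live CD45+ cells sorted from atherosclerotic aortas of Apoe-/- mice after 13 weeks of western diet. These mice lack apolipoprotein E and develop plaques. No other group is analysed here, so every comparison is between cell clusters of the same aortas. The titles name 2 biological replicates with 2 libraries each (1-1 and 1-2, 2-1 and 2-2), and 6 mice are stated without their division over replicates. P-values therefore measure only how far differences between clusters vary between these 2 pools.

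The libraries held 236 to 1231 cells and 1698585 to 5954716 UMIs (unique molecular identifiers, which tag single captured transcript ends), and no barcode was shared between libraries. Clusters were named from marker genes that include no integrin, each counted where at least 2 times the mean of the other clusters. The integrin ligands Spp1 and Fn1 are among the foamy and the cavity macrophage markers. Cluster 0 (12 of 12 resident macrophage markers) and cluster 3 (9 of 12) were resident-like, cluster 8 foamy (11 of 12), cluster 13 cavity macrophage-like (7 of 10), and cluster 2 held 10 resident and 8 inflammatory markers of 12 each. Cluster 1 passed for only 1 of 9 general macrophage markers and 2 of 12 foamy markers, and took no subtype. It completes the 6 macrophage clusters by the sum of its general macrophage markers, 27982 CPM. The other macrophage clusters had 24683 to 36954 CPM, and all further clusters at most 21873 CPM. The dendritic clusters were 4 (cDC2-like, 7 of 8), 11 (cDC1-like, 8 of 8) and 12 (mature, 9 of 9). Cluster 5 was monocyte-like (9 of 12), 7 neutrophil-like (8 of 8), 6 cycling (8 of 8) and 9 carried fibroblast markers (6 of 6), which goes against the CD45 label. Cluster 10 stayed unnamed. Clusters 3, 8 and 10 were shallow, with medians of 834, 980 and 805 UMIs per cell against 4196 or more in each library. The series text lists Itgax among the markers by which dendritic cells were kept, so presence of Itgax among these cells is no finding.

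Levels are CPM, the share of the raw UMIs per 1e+06, summed over a cluster in each biological replicate, given as mean ± SD over n = 2. A UMI counts a transcript end and is not scaled by gene length. Capture can differ between genes, so levels are compared between clusters for 1 gene. The authors drew the clusters from the same counts, and therefore p-values between clusters are too small and are read as a ranking.

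Itgal, Itgam and Itgax lie on the plus strand of chromosome 7 (GRCm38, GENCODE M21): Itgal at 127296260 to 127335138, Itgam at 128062640 to 128118491 and Itgax at 128129547 to 128150657. Itgad, another alpha partner of Itgb2, starts at 128154376 and gave 1 UMI in all cells. Itga4 (79255426 to 79333123) and Itga6 (71745616 to 71858416) lie on chromosome 2, Itgae on 11 (73090583 to 73147446), Itgb1 on 8 (128685654 to 128733200) and Itgb2 on 10 (77530252 to 77565708). Itgb7 lies on the minus strand of chromosome 15 (102215995 to 102231944). Itgam and Itgax are neighbours whose levels over the 14 clusters gave a Pearson r of -0.04, a description, and Itga4 and Itgb1 are partners that both peaked in cluster 12. For these the 250 bases before the gene start are shown (RefSeq, GRCm38.p6, plus strand, at chr7:128062390-128062639, chr7:128129300-128129549, chr2:79255176-79255425 and chr8:128685404-128685653). Capitals mark GAGGAA on either strand, the core that the myeloid factor PU.1 recognises.
Itgam: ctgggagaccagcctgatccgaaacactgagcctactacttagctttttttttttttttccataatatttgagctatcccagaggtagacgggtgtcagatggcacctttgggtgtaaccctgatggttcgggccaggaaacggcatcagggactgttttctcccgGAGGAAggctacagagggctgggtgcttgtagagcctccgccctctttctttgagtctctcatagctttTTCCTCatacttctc
Itgax: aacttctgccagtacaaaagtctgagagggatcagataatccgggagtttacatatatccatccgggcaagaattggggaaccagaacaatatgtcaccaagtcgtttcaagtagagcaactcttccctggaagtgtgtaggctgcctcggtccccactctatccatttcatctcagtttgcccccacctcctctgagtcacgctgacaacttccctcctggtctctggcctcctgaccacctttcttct
Itga4: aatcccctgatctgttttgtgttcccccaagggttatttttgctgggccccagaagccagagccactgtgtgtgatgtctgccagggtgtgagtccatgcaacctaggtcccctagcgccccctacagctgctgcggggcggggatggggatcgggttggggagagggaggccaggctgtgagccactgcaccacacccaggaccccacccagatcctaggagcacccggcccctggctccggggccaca
Itgb1: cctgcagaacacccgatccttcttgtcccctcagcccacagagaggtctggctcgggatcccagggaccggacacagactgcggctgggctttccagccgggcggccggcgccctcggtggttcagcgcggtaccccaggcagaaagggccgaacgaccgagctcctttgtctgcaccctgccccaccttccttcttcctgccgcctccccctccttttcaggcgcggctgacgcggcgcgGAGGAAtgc
The Itgam window held the motif at 2 places, 84 and 15 bases before the start, and the Itgb1 window held it once, whereas the Itgax and Itga4 windows did not hold these letters. Of 32851 promoters, 23.3% hold GAGGAA in a window of this length, so a match is a description and no binding site.

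The mature dendritic cluster carried Itga4 far above every other cluster. In cluster 12, Itga4 stood at 599.6 CPM in replicate 1 and 491.7 CPM in replicate 2 (545.7 ± 76.3). The libraries gave 568.1, 615.7, 524.2 and 479.1 CPM. The next cluster was the cDC1-like cluster 11, at 138.3 and 108.4 CPM, and cluster 4 stood at 81.3 and 95.3 CPM. All 4 libraries of cluster 12 thus lay far above those of clusters 4 and 11, whose highest value was 139.6 CPM. UMIs of Itga4 were found in 33 of the 44 cells (75.0%), and after every cell was thinned to 2000 UMIs still in 69.4% (exact 95% interval 51.9 to 83.7%, n = 36) against 2.47% to 21.7% in the other clusters with at least 36 such cells. Against cluster 4 the difference was 2.64 ± 0.20 on the log2 scale (SE, edgeR, adjusted p = 3.4e-13), and the ratio of pooled counts was 5.98 (95% 4.74 to 7.52). The pathway partner Itgb1 reached its highest level in the same cluster, 263.8 and 372.1 CPM, but its replicates did not pass the test against cluster 4 (0.73 ± 0.27, adjusted p = 0.0539).

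**Figure D1:**
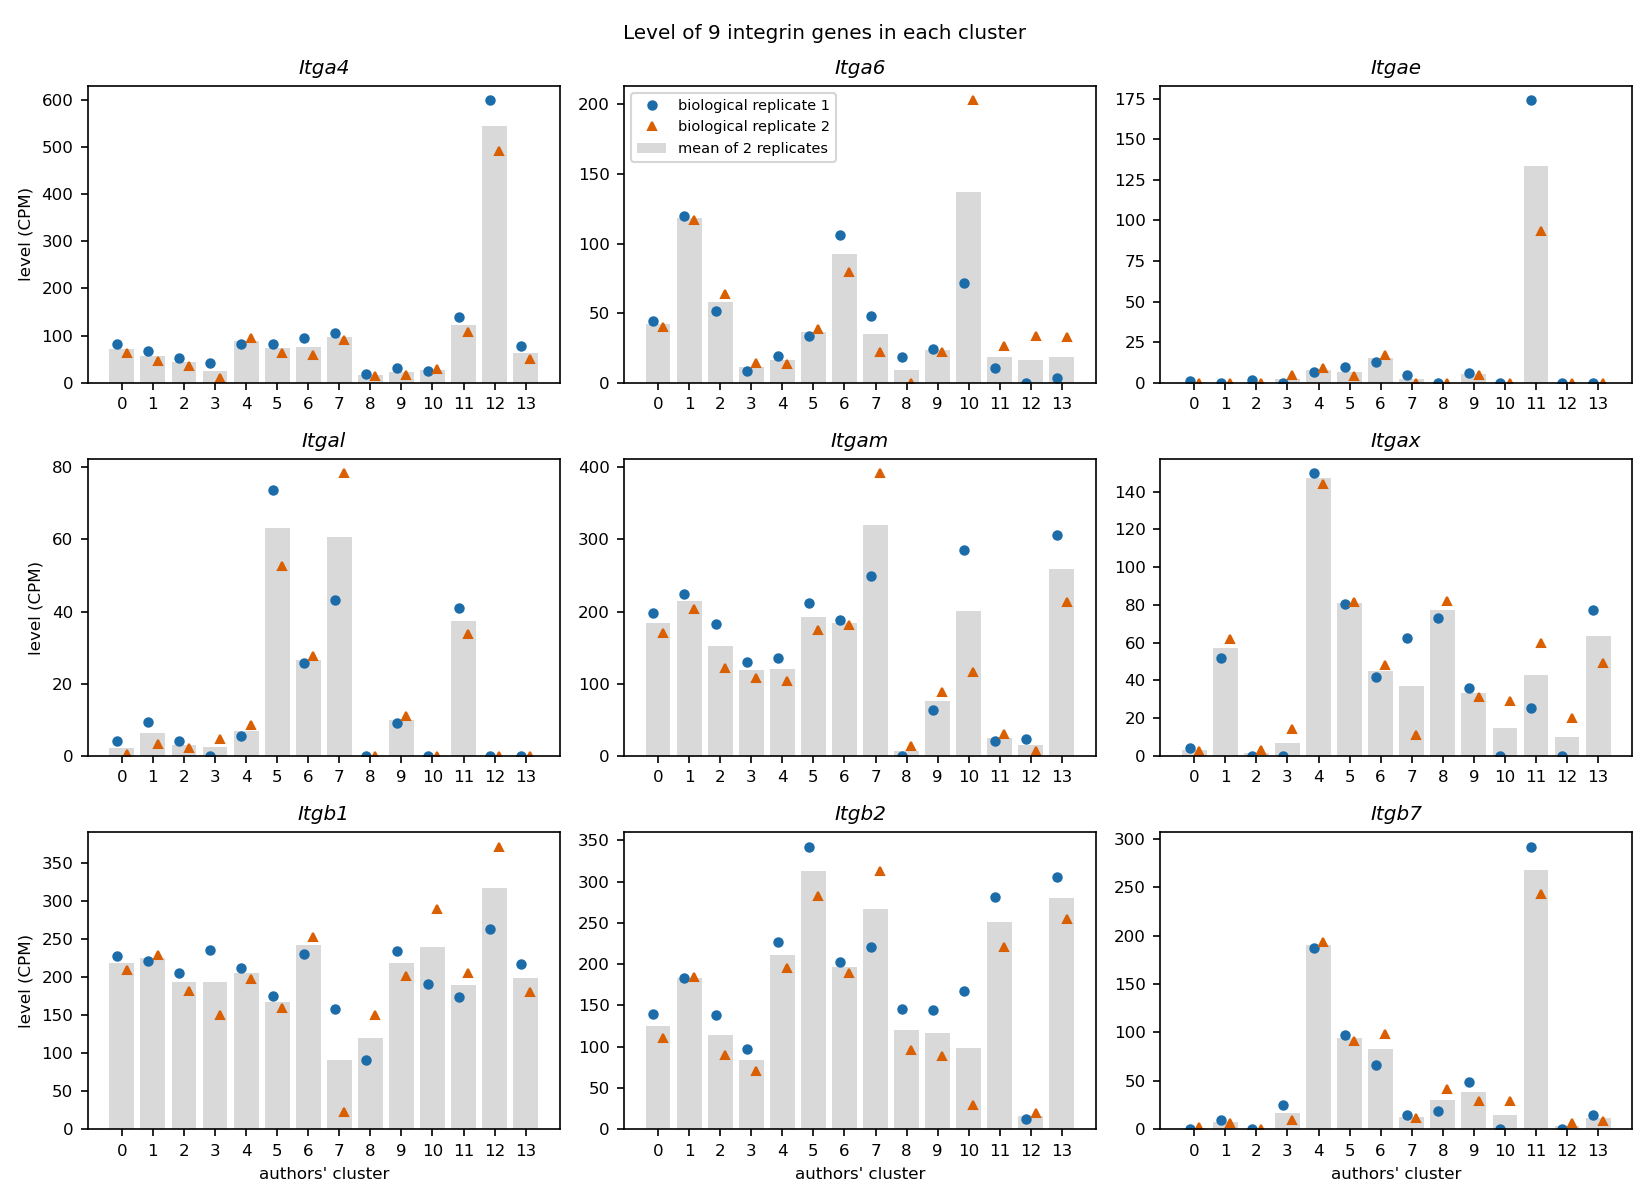
Level of each gene (y axis, CPM, separate scales) in the authors' clusters 0 to 13 (x axis); bars are the mean of 2 biological replicates, circles replicate 1 and triangles replicate 2. Itga4 peaks in cluster 12 at 545.7 CPM and Itgae in cluster 11 at 133.8 CPM, while Itgb1 varies least.

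Itgb2, Itgb7, Itgam and Itgax were all low in the mature cluster. Itgb2 gave 4 UMIs in cluster 12 (11.99 and 19.93 CPM) against 226.4 and 194.9 CPM in cluster 4, a log2 difference of -3.54 ± 0.48 (adjusted p = 3.1e-07). Itgb7 gave 1 UMI there against 190.0 ± 4.6 CPM in cluster 4, a pooled ratio of 0.0225 (95% 0.000568 to 0.126). Itgam and Itgax gave 3 UMIs each, pooled ratios of 0.108 (0.0221 to 0.318) and 0.0873 (0.0179 to 0.257). Itgae and Itgal gave none, and at this depth no fold against cluster 4 can be given, since 3 counts would be 12.8 CPM. Among the 83 beta subunit UMIs of cluster 12, 94.0% were Itgb1 (95% 86.5 to 98.0%), and 91.9% of its 135 alpha subunit UMIs were Itga4. Over all cells these shares were 47.3% for Itgb1 and 45.2% for Itgam, the commonest alpha subunit. Against cluster 4, 1 member was higher and 4 were lower (adjusted p under 0.05), where 8.59% of all tested genes were higher and 11.4% lower. The median log2 difference of the 7 members with UMIs in both clusters was -3.13, against -0.17 over all genes with such UMIs. Over all 9 members as fitted it was -3.46, against -0.30 over all tested genes.

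Genes that pass on the integrin signal were low in the mature cluster too. Of 11 signalling genes, 8 were lower and none higher than in cluster 4 (median -2.22), among them Vav1, an exchange factor (-4.00 ± 0.85), the kinase Fgr (-3.39 ± 0.60) and the adaptor Lcp2 (-2.69 ± 0.56). Of 24 tested activation genes, 6 were lower and 2 higher. Beside both lists, 11.4% of all tested genes were lower and 8.59% higher, so the 2 higher activation calls are near that share. Fermt3, the kindlin that switches integrins on, was lower (-1.68 ± 0.37), as was Rassf5, a Rap1 effector (-2.33 ± 0.71), whereas the kinase Stk4 was higher (2.08 ± 0.24). Icam1, a ligand of the Itgb2 integrins, stood at 311.8 and 146.2 CPM in cluster 12 against 48.1 and 66.7 CPM in cluster 4 (1.90 ± 0.35).

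**Figure D2:**
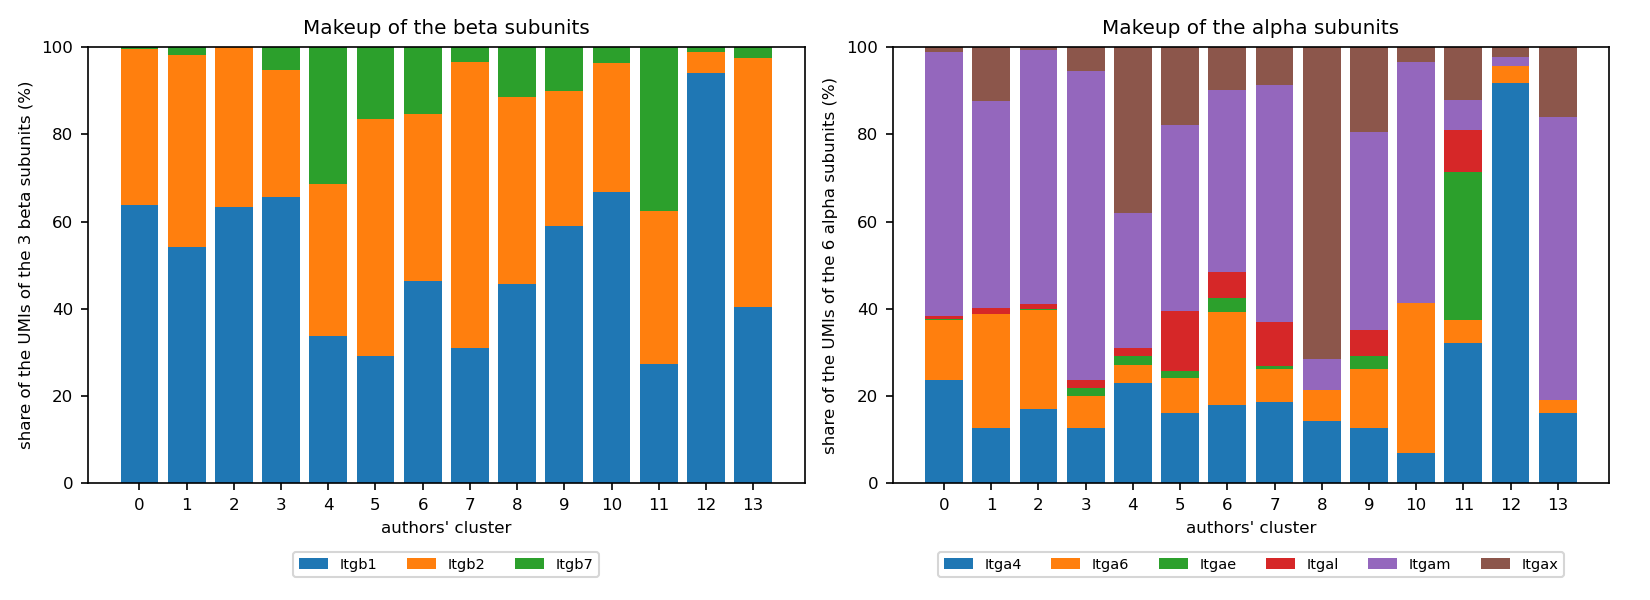
Share of the UMIs (y axis, percent) of the 3 beta subunits (left) and the 6 alpha subunits (right) in each cluster (x axis). Cluster 12 is 94.0% Itgb1 and 91.9% Itga4, and Itgb7 takes its largest shares in clusters 11 and 4, 37.5% and 31.4%.

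The cDC1-like cluster was set apart by Itgae. In cluster 11 it stood at 174.2 and 93.5 CPM, and in cluster 4 at 6.47 and 9.28 CPM. The 4 libraries of cluster 11 gave 110.8, 177.2, 102.7 and 89.7 CPM, all above the highest library of cluster 4, 9.55 CPM. These values rest on 1, 33, 8 and 17 UMIs. Library 1-1 held 3 cells of this cluster, so its value of 1 UMI shows no difference on its own. Of 47 cells, 28 had an Itgae UMI (59.6%), and clusters 1, 8, 10, 12 and 13 had none, where 0 of 543 cells in cluster 1 allows up to 0.552% of cells with a UMI and 0 of 44 in cluster 12 up to 6.82%, which limits cells with a UMI and not cells that express the gene. The difference was 3.95 ± 0.47 (adjusted p = 1.8e-07), with a pooled ratio of 16.1 (9.34 to 28.9). Itgal was also higher in cluster 11 (37.3 ± 5.2 against 6.99 ± 2.05 CPM, 2.32 ± 0.61, adjusted p = 0.0105). Itgam (20.5 and 29.9 against 135.9 and 103.8 CPM, -2.22 ± 0.38) and Itgax (25.6 and 59.8 against 149.7 and 144.3 CPM, -1.74 ± 0.32) were lower. Thus 2 members were higher and 2 lower, beside 3.77% and 5.72% of all genes (median 0.21 against -0.04). Without library 1-2, which leaves 3 cells in replicate 1 of cluster 11, 1 member was called, and limma-trend called 2.

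Itgb7, the partner of Itgae, was shared by both conventional dendritic clusters. It stood at 292.0 and 243.0 CPM in cluster 11 and 186.7 and 193.2 CPM in cluster 4, and the replicate ranges were apart while the test was not passed (0.44 ± 0.19, adjusted p = 0.159). Thinned to 2000 UMIs, 41.3% of cells in cluster 11 and 35.2% in cluster 4 held an Itgb7 UMI, against 4.94% in cluster 9 (85.1%, 67.4% and 16.1% before thinning). Cluster 9, with fibroblast markers and a median of 8212 UMIs per cell, should lack Itgb2, Itgb7 and their leukocyte partners Itgal, Itgam, Itgax and Itgae, and its shares are given as a comparison. Its summed macrophage markers stood at 11963 CPM, so it is no clean blank, and clusters 0 and 2 held fewer Itgb7 UMIs (0.315% and 0% of cells before thinning). E-cadherin (Cdh1), the ligand of the Itgae and Itgb7 pair, gave 31.2 ± 2.4 CPM in cluster 4 and no UMI in cluster 11, where 3 counts would be 6.48 CPM. In cluster 11 the mast cell markers Cpa3, Mcpt4, Tpsb2 and Ms4a2 all came from 1 cell, and without it Itgae stood at 134.2 ± 56.6 and Itgb7 at 267.6 ± 34.5 CPM, close to the values with it. Of the 11 signalling genes 6 were lower in cluster 11 than in cluster 4 and none higher, beside 5.72% and 3.77% of all genes. Fgr was among the 6 (5.12 and 18.7 against 149.7 and 133.3 CPM, -3.46 ± 0.44).

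**Figure D3:**
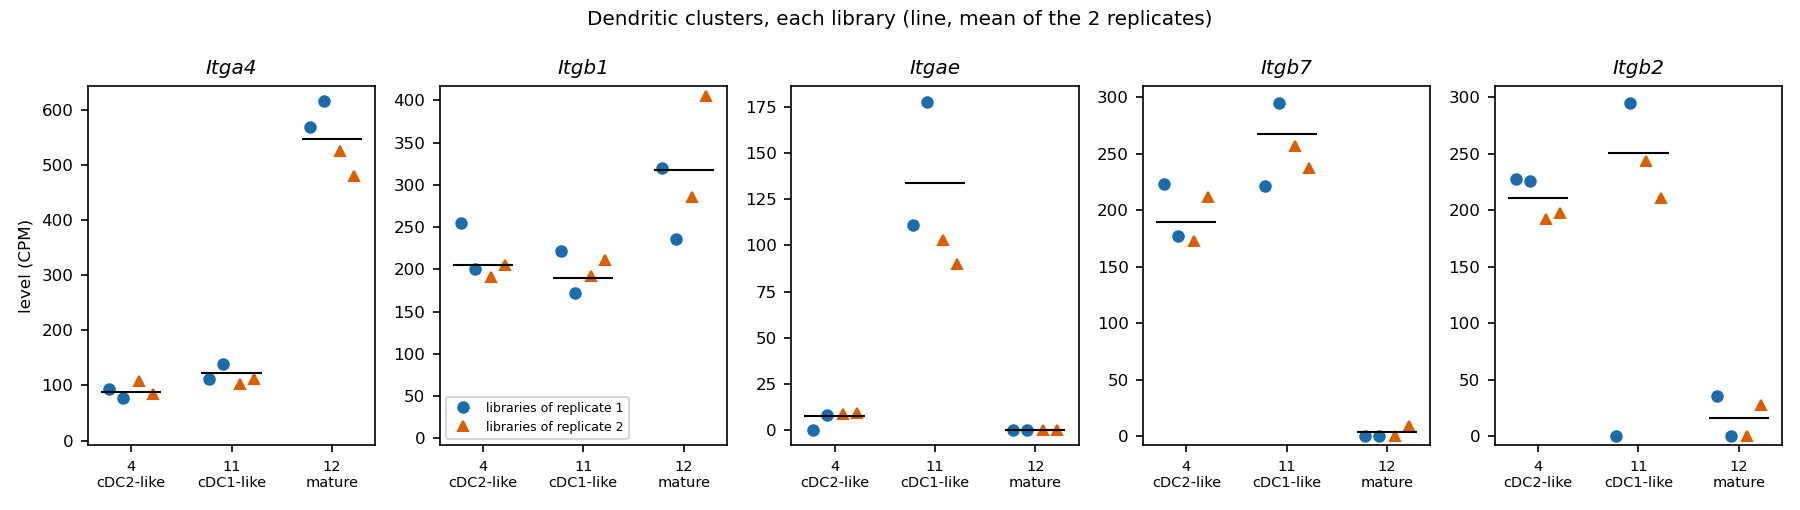
Levels (y axis, CPM) of 5 integrin genes in the 3 dendritic clusters (x axis), 1 point per library (circles, replicate 1; triangles, replicate 2) with the mean of the 2 replicates as a line. Itga4 is high in all 4 libraries of cluster 12 (479.1 to 615.7 CPM), and Itgb7 is near 0 there. The Itgae point of library 1-1 in cluster 11 is 1 UMI from 3 cells.

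Macrophage clusters as a class carried less Itga4, Itgb7 and Itgax and more Itgam than dendritic clusters. Averaged over clusters, Itga4 stood at 46.4 ± 14.4 CPM in macrophages and 252.5 ± 29.2 in dendritic clusters (-2.20 ± 0.17, adjusted p = 1.3e-13), and Itgb7 at 11.1 ± 0.1 against 153.6 ± 8.4 (-3.62 ± 1.04, adjusted p = 0.00666). Itgam was higher in macrophages (156.0 ± 24.9 against 53.4 ± 9.4, 1.61 ± 0.50, adjusted p = 0.0123), and Itgax was lower (34.9 ± 0.9 against 66.6 ± 11.5, -1.45 ± 0.49, adjusted p = 0.0224). That is 1 member higher and 3 lower, beside 10.5% and 18.9% of all genes. The median was -0.34 over the 7 members with an estimate, against -0.19 over all genes with an estimate. Over all tested genes it was -0.14. These class means join unlike clusters: the Itga4 mean is raised by cluster 12, and Itgax is high in cluster 4 (147.0 CPM) but not in 12 (10.0 CPM). Without library 2-2 only Itga4 was called, Itgax then standing at 0.45, and Itgam was also not called without library 2-1. Itgb2 did not pass (0.49, adjusted p = 0.112), and its ratio of pooled counts went the other way, 0.74. The test gave no estimate for Itgae and Itgal, which had no UMI in 4 and 3 of the compared clusters. In pooled counts Itgae had 3 UMIs in macrophages against 77 in dendritic clusters, a ratio of 0.0130 (0.00263 to 0.0395).

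Of 10 tested ligands, 3 passed as higher in macrophages and none as lower, beside the same 10.5% and 18.9% of all genes. They include Spp1, osteopontin (3.81 ± 1.46), and Fn1, fibronectin (2.02 ± 0.43). Spp1 is a marker that named cluster 8, where it stood at 10360.6 CPM against a mean of 330.7 in the other clusters. Fn1 is a marker that named cluster 13, with 2740.7 against 133.5 CPM. These 2 calls therefore do not describe macrophages as a class. Among activation genes Cytip, a scaffold that binds cytohesin, was lower in macrophages (-3.63 ± 0.15), and Itgb5, the partner of Itgav, was higher (1.64 ± 0.31).

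**Figure D4:**
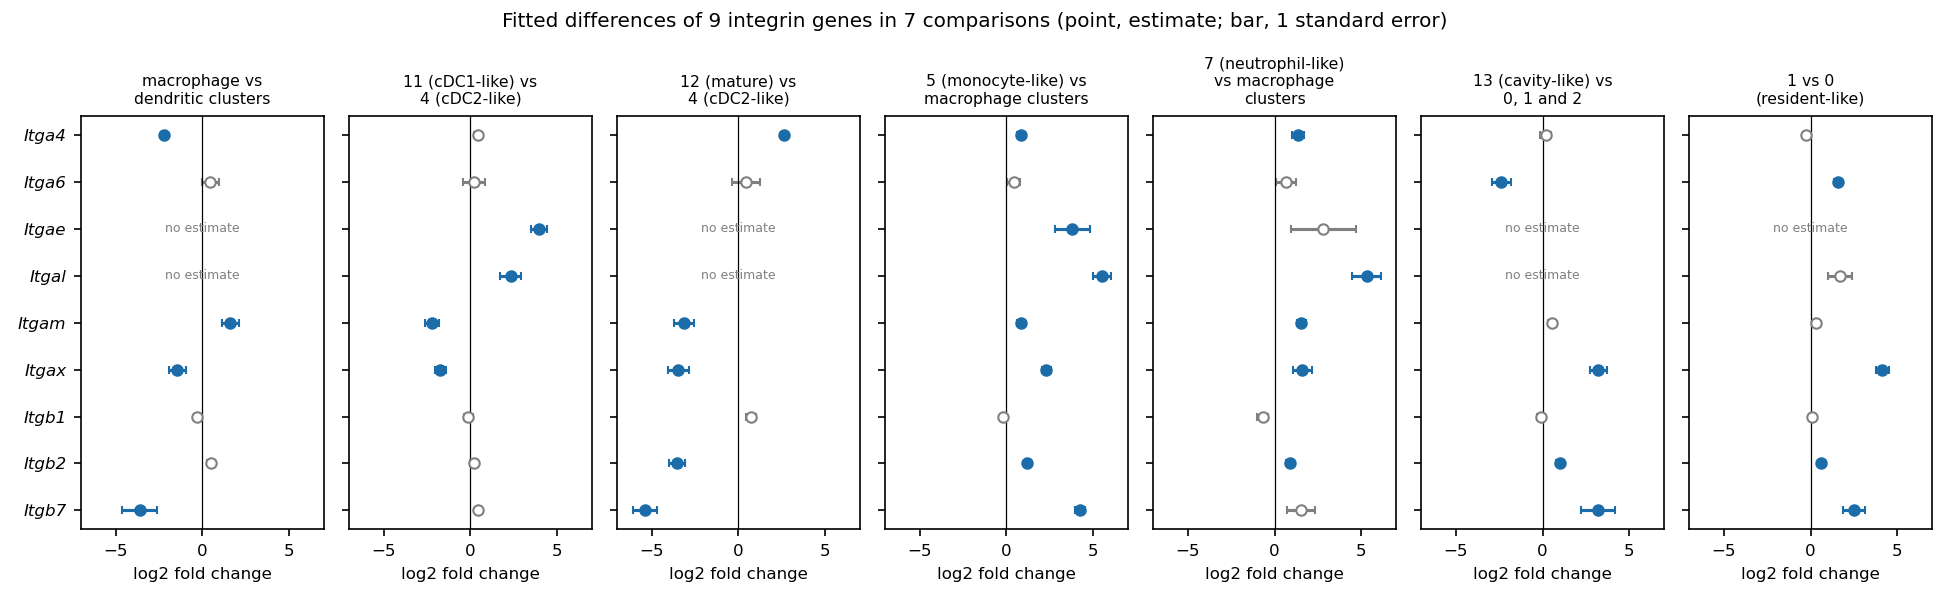
Fitted log2 fold change of each gene (x axis; first-named side minus second) in 7 comparisons, with bars of 1 standard error; filled points passed an adjusted p of 0.05 and open points did not. "No estimate" marks a side with 0 UMIs or a fit without a finite error; Itgb1 passes in no panel.

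The monocyte-like cluster had high Itgal and Itgb2, the 2 chains of LFA-1, at levels that overlap other clusters. Itgal stood at 73.6 and 52.6 CPM in cluster 5, level with cluster 7 (43.2 and 78.3 CPM), and at 2.37 ± 0.80 CPM averaged over the macrophage clusters. Its pooled ratio to macrophages was 17.0 (11.3 to 26.1). Itgb2 stood at 342.4 and 282.3 CPM against 151.2 ± 24.2 in macrophages (1.16 ± 0.15, adjusted p = 1.6e-07), and its replicates overlap those of cluster 13 (305.7 and 254.7 CPM) and cluster 7 (220.9 and 313.2 CPM). At 2000 UMIs, 18.0% of cells in cluster 5 had an Itgal UMI against 3.70% in cluster 9 and 1.54% in cluster 1 (31.1%, 7.53% and 2.95% before thinning). Within cluster 5, an Itgb2 UMI was found in 66.7% (49.0 to 81.4%) of the 36 cells with an Itgal UMI and in 39.6% (32.1 to 47.6%) of the 164 without, a description of cells from pooled libraries. The share in cluster 9 was 17.3%. In cluster 11 the direction was the same (2 of 4 Itgal cells against 26.2%). Clusters 1, 4 and 6 showed the reverse (1 of 8, 0 of 4 and 1 of 6 against 28.8%, 30.1% and 26.6%). In clusters 0, 2 and 9, none of 1, 1 and 3 Itgal cells held Itgb2. The values of cluster 5 are thus no rule for this pair. T cell markers summed to 6.2 CPM in this cluster, with Cd3d and Cd3e at 0.

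Itgb7 was also high in the monocyte-like cluster, at 97.6 and 91.3 CPM against 11.1 ± 0.1 in macrophages, a pooled ratio of 19.5 (13.8 to 28.1). It was commoner in cells with a UMI of Ly6c2, a marker of classical monocytes: 41.4% (28.6 to 55.1%) of 58 such cells at 2000 UMIs against 13.4% (8.3 to 20.1%) of 142 others. Itgax went the other way, with 5.2% (1.1 to 14.4%) against 16.2% (10.6 to 23.3%), and these intervals overlap. This split was made after the levels had been seen.

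In all, 7 members were higher in cluster 5 than in macrophages and none lower, beside 20.2% and 4.49% of all genes (median 1.16 against 0.26). The other 5 besides Itgal and Itgb2 were Itgb7 (4.23 ± 0.29), Itgax (2.30 ± 0.26), Itga4 (0.86 ± 0.23), Itgam (0.84 ± 0.23) and Itgae (3.80 ± 1.00). The calls of Itgam and Itga4 were lost without the shallow clusters 3 and 8, where the log2 differences were -0.017 and 0.35. The pooled ratios with them were 1.04 and 1.27. The Itga4 call was also lost without library 1-2 (0.70) and without library 2-2 (0.63). The call of Itgae rests on 10 UMIs in 3 cells, 7 of them in 1 cell, and without that cell its level was 2.08 in place of 6.76 CPM. Its share of cells, 1.44%, does not exceed the 2.15% of cluster 9. Limma-trend called 4 of the 7, as did the fit without library 1-2. Of the signalling genes, 9 of 11 were higher, with Fgr at 3.50 ± 0.23, and of the activation genes 9 of 24 were higher and 1 lower. Complement C3, whose fragment binds Mac-1, was higher as well (3.67 ± 0.36), as was Fn1 (2.71 ± 0.24).

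In the neutrophil-like cluster Itgam reached its highest level, 249.7 and 391.5 CPM, with replicates that overlap those of cluster 13. Against macrophages 5 members were higher and none lower, beside 19.9% and 9.10% of all genes (median 1.51 against 0.15): Itgal (5.31 ± 0.84), Itgax (1.60 ± 0.54), Itgam (1.54 ± 0.27), Itga4 (1.33 ± 0.34) and Itgb2 (0.91 ± 0.22). Pooled ratios were 14.4 (7.42 to 27.0) for Itgal on 16 UMIs and 1.80 (0.967 to 3.08) for Itgax on 14 UMIs, an interval that includes 1. They were 1.57 (1.25 to 1.95) for Itgam, 1.74 (1.16 to 2.51) for Itga4 and 1.68 (1.31 to 2.13) for Itgb2. For Itgal, 2 of the macrophage clusters had no UMI. Cluster 7 holds 297634 UMIs with a median of 1601 per cell, and with all cells thinned to 2000 UMIs which drops clusters 3 and 8, edgeR called no member (1 at an unadjusted p under 0.05) and Itgax stood at -0.34. At 2000 UMIs the Itgax share was 2.27% of cells (9.6% before thinning) against 3.70% in cluster 9. Without clusters 3 and 8, 3 were called, and likewise without library 2-2. Of its 113 beta subunit UMIs 65.5% were Itgb2, though the replicates differed widely for Itgb1 (158.5 and 22.4 CPM). They also differed for Itgax (62.4 and 11.2 CPM, 13 and 1 UMIs) and for the summed neutrophil markers (15962 and 38539 CPM). Whether these differences are linked was not tested. Icam1 (2.51 ± 0.27) and C3 (3.94 ± 0.54) were higher and Fn1 lower (-3.78 ± 0.95).

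Among macrophages, cluster 1 differed from the resident-like cluster 0 by Itgax and Itga6. Itgax stood at 51.8 and 62.0 CPM in cluster 1 and at 4.09 and 2.55 CPM in cluster 0 (4.14 ± 0.36, adjusted p = 1.1e-11, pooled ratio 18.0). At 2000 UMIs its share of cells in cluster 1 was 8.25% (6.04 to 10.96%) against 3.70% (0.770 to 10.4%) in cluster 9, and these intervals overlap. Itga6, the laminin receptor chain, stood at 119.6 and 116.6 CPM against 44.2 and 39.8 CPM (1.56 ± 0.19, adjusted p = 1.8e-08). Itgb2 was higher by less (0.62 ± 0.19, adjusted p = 0.0114). Itgb7 was called (2.52 ± 0.64), but it rests on 25 UMIs, and its share of cells at 2000 UMIs was 0.96% in cluster 1, 0.165% in cluster 0 and 4.94% in cluster 9. That made 4 members higher and none lower, beside 12.5% and 12.4% of all genes. The median was 1.09 over the 8 members with UMIs in both, against -0.0043 over all genes with such UMIs. Over all tested genes it was -0.0027. Limma-trend called no member (1 at an unadjusted p under 0.05), and 145 genes of all in place of the 1662 that edgeR called. All 3 other tested integrins were higher in cluster 1, with Itgav at 1.39 ± 0.21 and Itgb5 at 1.33 ± 0.21. Fgr (3.90 ± 0.40), Spp1 (4.06 ± 0.39) and Fn1 (3.08 ± 0.34) were higher too.

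Cavity macrophage-like cells carried little Itga6 and carried much Itgb2. In cluster 13, Itga6 stood at 3.68 and 32.9 CPM against 72.7 ± 1.1 in clusters 0, 1 and 2 (-2.39 ± 0.55, adjusted p = 0.00116). This level rests on 5 UMIs in 3 cells, with none of 40 cells at 2000 UMIs. The compared mean is raised by cluster 1 (118.1 CPM), and cluster 0 stood at 42.0 ± 3.1 CPM. The dendritic clusters 4, 11 and 12 were about as low, at 16.5, 18.2 and 16.6 CPM. Itgb2 stood at 305.7 and 254.7 CPM against 140.7 ± 18.2 (0.99 ± 0.20, adjusted p = 0.000189), and Itgam at 305.7 and 213.7 CPM, which did not pass (adjusted p = 0.0711). Itgax was called higher (77.3 and 49.3 CPM, 3.22 ± 0.48), with a pooled ratio of 2.86. Its replicates overlap those of cluster 1 (51.8 and 62.0 CPM), and the fold is pulled by clusters 0 and 2, at 3.32 and 1.65 CPM. Itgb7 (3.21 ± 0.98) was called on 5 UMIs, with 12.2% of cells against 16.1% in cluster 9, and none of 40 cells at 2000 UMIs. So 3 members were higher and 1 lower, beside 9.91% and 9.97% of all genes. The median was 0.52 over the 7 members with UMIs on both sides, against 0.0047 over all genes with such UMIs. Over all tested genes it was -0.04. Limma-trend called no member (5 at an unadjusted p under 0.05), and without library 1-2, which holds 24 of the 41 cells, 1 member was called. The ligand Fn1 reached 2740.7 ± 63.7 CPM here, its highest level (5.69 ± 0.24). Fn1 is 1 of the 7 markers by which cluster 13 was named, so this level is no finding. Itgb5 was lower (-3.93 ± 0.48).

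The shallow foamy cluster 8 had 1 UMI of Itgam in 105 cells and 10 of Itgax (72.8 and 81.9 CPM). The resident-like cluster 0 and cluster 2, with resident and inflammatory markers, showed the reverse. Itgam stood there at 183.6 ± 19.5 and 152.3 ± 43.9 CPM and Itgax at 3.32 ± 1.09 and 1.65 ± 2.34 CPM. The resident-like cluster 3, also shallow, had 39 UMIs of Itgam in 325 cells (119.3 ± 15.4 CPM) and 3 of Itgax (7.07 ± 10.00 CPM). Whether depth plays a part in the levels of cluster 8 was not tested.

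Cycling cells of cluster 6 showed a mix of all 9 genes. T cell markers summed to 279.5 and 549.5 CPM there and NK cell markers to 156.1 and 639.1 CPM. Of 135 cells, 47 held at least 3 UMIs of these lists. They gave 15 of the 21 Itgae UMIs (71.4%), 24 of 38 Itgal UMIs (63.2%), 68 of 114 Itgb7 UMIs (59.6%) and 62 of 115 Itga4 UMIs (53.9%). For Itga6, Itgb1, Itgam, Itgb2 and Itgax their share was 26.3% to 40.6%. Without these 47 cells Itgae stood at 5.69 in place of 15.02 CPM, Itgal at 16.8 in place of 26.6 CPM and Itgb7 at 51.6 in place of 82.3 CPM. Itga6 rose to 113.8 from 92.6 ± 18.9 CPM, whereas Itga4, Itgam, Itgax, Itgb1 and Itgb2 moved by less than their SD.

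**Figure D5:**
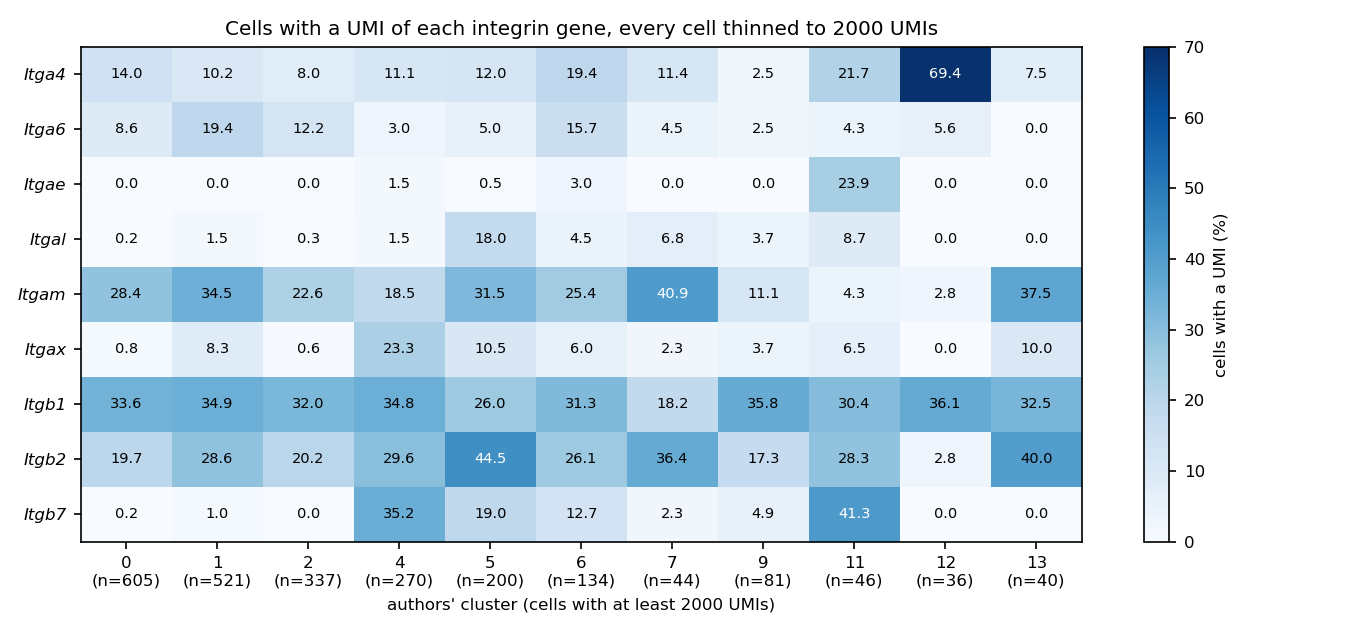
Percent of cells with at least 1 UMI of each gene (rows) in clusters with at least 36 cells of 2000 UMIs (columns, n under each), every cell thinned to 2000 UMIs; numbers are percent. Itga4 is found in 69.4% of cluster 12 and Itgae in 23.9% of cluster 11, while Itgb1 lies between 18.2% and 36.1%.

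Itgb1 varied least over the clusters, from 90.4 ± 96.2 CPM in cluster 7 to 318.0 ± 76.5 in cluster 12, and passed the test in none of the 7 comparisons. Its highest level was 1.57 times the median over clusters, against 88.6 times for Itgae, 17.0 for Itgb7 and 13.2 for Itgal. Most neighbours in the order of levels could not be told apart: for Itga4 3 of 13 neighbouring pairs had replicate ranges apart, for Itgb1 and Itgam 2 of 13. Over the 14 clusters, which share libraries and differ in depth, Itgae ran with Itgb7 (r = 0.78), Itgal and Itgax with Itgb2 (0.61 and 0.60), and Itgb1 against Itgb2 (-0.53).

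Among 5240 genes, those whose levels over the 14 clusters were most like a member were, for Itga4, Cd1d1 and Ikbkb (r = 0.92 and 0.90). For Itgae they were the cDC1 marker Xcr1 (0.96), Sept3 and Ifi205, and for Itgb7 Gpr171 (0.91), Nhp2 and Pfkp. Itgb2 ran with Ncf4, a subunit of the phagocyte oxidase (0.89), Hcls1 and Coro1c, and Itgam with Dhx40 (0.93), Gripap1 and Sirpa. Itgb1 was followed by Ube2e3 (0.91), H1f0 and Tbl1x, Itga6 by Pdgfb (0.89), Tanc2 and 5430427O19Rik, Itgal by Dgat2 (0.83), Ppp2r5a and Irak2, and Itgax by Tkt (0.85), Mdh2 and Bin2. These are descriptions over clusters.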

How the data were processed

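UMI counts of 10x Genomics 3' libraries were made by the authors with Cell Ranger 3.0.2 on mm10 and analysed with Seurat 3.1.1, per the labels and the submitters' processing notes. The deposited table of raw counts of 18825 genes in 3002 cells was used, with the authors' cluster numbers. The percent of mitochondrial counts, also deposited, was not tested, and the deposited log-normalized table was not used. The labels do not state cell filters, strand setting or how doublets were treated, and no doublet caller was run.

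Counts were summed per cluster and biological replicate (28 sums) and fitted with edgeR 4.0.16 (filterByExpr, TMM, glmQLFit, glmQLFTest; 6657 genes, replicate as a block since clusters of 1 replicate share animals, 13 residual degrees of freedom). Tests are two-sided with Benjamini-Hochberg adjustment over all genes, called under 0.05. Clusters averaged on a log scale give a fold that clusters near 0 pull. Pooled count ratios have exact 95% intervals, which, like the floor of 3 counts, cover counting error only. Cells were thinned to 2000 UMIs (2357 cells) to compare shares. On simulated counts of 6657 genes, 100% of 2-fold and 100% of 4-fold changes were recovered for macrophages against dendritic clusters, and 71% of 2-fold and 100% of 4-fold changes for cluster 11 against cluster 4. Changed genes were drawn only from those at 50 CPM or more over all cells. All genes had 1 common spread, in clusters otherwise alike. These shares do not cover Itgae and Itgal, at 6.14 and 13.3 CPM as the mean of the libraries.

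Members and lists were chosen with earlier results of these data known. Pathway genes are named where called, at 50 CPM or more on the higher side, up to 3 per list and comparison by size; the 3 genes most like each member are by Pearson r of log2(CPM + 10), of which 1 is not reported here. Alternatives were RLE scaling, DESeq2 1.42.0, limma-trend (limma 3.58.1), no filter, no block, 4 libraries as samples, thinning, leaving out clusters 3 and 8, macrophage and dendritic clusters alone, and each library in turn. Single cells in clusters 5, 6 and 11 were left out as alternatives added after seeing the data. Promoters were found for 5 of the 9 members. Symbols in the table are from the files, of which 18133 were found in GENCODE M21.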

Additional observations from a re-analysis of the deposited data

How the results depend on the processing

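Of 33 calls of a member in a comparison, 10 kept direction and side of the threshold in every alternative run: Itga4 between macrophages and dendritic clusters, Itga4, Itgam, Itgax, Itgb2 and Itgb7 in cluster 12 against 4, Itgae in cluster 11 against 4, and Itgal, Itgb2 and Itgb7 in cluster 5. For the others the cause of a lost call was not tested. Not every alternative was run for every comparison. Those of clusters 11, 12 and 13 had no run with 4 libraries as samples. Leaving out clusters 3 and 8 was run only for macrophages against dendritic clusters, cluster 5 and cluster 7. The fit of macrophage and dendritic clusters alone was not run for clusters 5 and 7. With cells thinned to 2000 UMIs, which leaves 3891 genes tested and drops clusters 3, 8 and 10, the count of called members was 2 in place of 4 for macrophages against dendritic clusters, 1 in place of 4 for cluster 11, 4 in place of 7 for cluster 5, 0 in place of 5 for cluster 7, 2 in place of 4 for cluster 13 and 2 in place of 4 for cluster 1. Limma-trend gave 2 for cluster 11, 4 for cluster 5, 0 for cluster 13 and 0 for cluster 1 (at an unadjusted p under 0.05, 5 and 1; thinned cluster 7, 1). Without clusters 3 and 8, cluster 7 gave 3. Leaving out each library in turn gave 1 to 4 for macrophages against dendritic clusters, 1 to 4 for cluster 11, 5 to 6 for cluster 12, 4 to 7 for cluster 5, 3 to 5 for cluster 7, 1 to 4 for cluster 13 and 2 to 4 for cluster 1. Leaving out library 1-2 gave the lowest count for clusters 11, 5, 13 and 1, and library 2-2 for cluster 7 and for macrophages.

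Some log2 differences reversed, and the cause was not tested unless named. Between macrophages and dendritic clusters, 4 libraries as samples gave Itgam -0.48 and Itgb2 -0.88, where only cluster 4 is left as dendritic, and thinning gave Itgax 0.10. Leaving out 1 library gave Itgax -1.78 to 0.45 and Itga6 -0.34 to 2.42 there. In cluster 11 it gave Itgb2 -0.072 to 0.29 and Itga6 -0.74 to 0.79, in cluster 12 Itga6 -5.91 to 1.06, and in cluster 7 Itga6 -0.19 to 0.95 and Itgae -0.77 to 3.25. Limma-trend gave Itga6 -0.76 in cluster 12. Without clusters 3 and 8, Itga6 was -0.25 and Itgam -0.017 in cluster 5, and Itga6 was -0.14 in cluster 7. Thinning gave Itgax -0.34 in cluster 7, Itga4 -0.42, Itgae 0.15 and Itgb7 -1.59 in cluster 13, and Itgae 0.11 in cluster 1. DESeq2 gave Itgae 1.78 in cluster 13, and RLE scaling gave Itgb1 -0.010 in cluster 1.

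The genes called in all were 1956 for macrophages against dendritic clusters, 632 for cluster 11, 1330 for cluster 12, 1643 for cluster 5, 1930 for cluster 7, 1324 for cluster 13 and 1662 for cluster 1. Counts that moved by over 1.5 times follow. With cells thinned they were 1171 for macrophages against dendritic clusters, 231 for cluster 11, 609 for cluster 12, 774 for cluster 5, 634 for cluster 7, 487 for cluster 13 and 886 for cluster 1. With limma-trend they were 148 for cluster 11, 481 for cluster 5, 758 for cluster 13 and 145 for cluster 1. Without library 1-2 they were 1150 for macrophages against dendritic clusters, 133 for cluster 11, 698 for cluster 12, 810 for cluster 5, 1124 for cluster 7, 464 for cluster 13 and 592 for cluster 1. Without library 2-2 they were 1253 for macrophages against dendritic clusters, 285 for cluster 11, 878 for cluster 12, 1095 for cluster 5, 849 for cluster 13 and 995 for cluster 1.

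The fit with no replicate block called as many members in every comparison: 4, 4, 5, 7, 5, 4 and 4 in the order of the comparisons. With 2 replicates, depth limits genes of few UMIs.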
